A study of Homo sapiens with 19 samples.

Results

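The RNA-binding proteins described here are 9 regulators of alternative splicing that are often tied to epithelial-mesenchymal transition (EMT): ESRP1, ESRP2, RBFOX2, QKI, MBNL1, MBNL2, PTBP1, PTBP3 and CELF1. They were taken by gene symbol from the 15 splicing tables of the series, which name 11998 genes, and all 9 had values. The members hold 365 of the 218798 rows of these tables. Values are inclusion and skipping junction read counts for each exon or splice site in each library.

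The cells are HMLE/Twist-ER, human mammary epithelial cells immortalized with TERT that carry the transcription factor Twist fused to an estrogen receptor domain, so that tamoxifen switches Twist on. Epithelial (EPI) cells received no tamoxifen. Mesenchymal (MES) cells were grown in 20 nM tamoxifen until their shape had changed. Every RNA-seq line also carried a lentiviral shRNA vector, either a non-specific shRNA (control) or an shRNA against AKAP8 (AKAP8 KD), a nuclear scaffold protein that binds RNA. There were 3 EPI control, 3 EPI AKAP8 KD, 3 MES control and 2 MES AKAP8 KD libraries, with 21198882 to 28261544 reads summed per library over exon-skipping (SE) events. For eCLIP, which maps the RNA sites crosslinked to a protein, 2 AKAP8 immunoprecipitation (IP) and 2 input libraries per state were merged into a peak list by the authors. The Twist-ER transgene makes this a model of EMT started by a single factor in a single line.

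ESRP1 and ESRP2 are paralogs that keep the epithelial splicing program and are known to be lost when epithelial cells turn mesenchymal. RBFOX2 binds GCAUG and QKI binds ACUAA-type elements, and both are known to promote mesenchymal exon choices. MBNL1 and MBNL2 bind YGCY elements, where Y is C or U. PTBP1 and its paralog PTBP3 bind pyrimidine-rich RNA and often repress exons, and CELF1 binds GU-rich RNA and is known to oppose MBNL proteins at some exons. Many of these proteins also splice their own transcripts, so both the amount and the isoform of a member can be read from the tables.

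The exons below are shown because their inclusion differed most between the states, or because AKAP8 peaks lie in the intron that follows. Each exon is in capitals with 20 nt of the intron on either side in lower case, read from GRCh37 in the sense direction of the gene, which is the plus strand for all 4. The MBNL1 54 nt exon lies at chr3:152164493-152164546, the MBNL1 36 nt exon at chr3:152173331-152173366, the MBNL2 54 nt exon at chr13:98009050-98009103 and the PTBP1 78 nt exon at chr19:805492-805569.
MBNL1 54 nt exon: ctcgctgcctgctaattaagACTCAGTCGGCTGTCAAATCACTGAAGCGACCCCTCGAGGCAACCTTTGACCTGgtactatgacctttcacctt
MBNL2 54 nt exon: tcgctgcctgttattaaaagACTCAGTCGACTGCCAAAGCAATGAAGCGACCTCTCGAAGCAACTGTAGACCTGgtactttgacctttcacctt
MBNL1 36 nt exon: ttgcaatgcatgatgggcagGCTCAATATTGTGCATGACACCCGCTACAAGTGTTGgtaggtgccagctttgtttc
PTBP1 78 nt exon: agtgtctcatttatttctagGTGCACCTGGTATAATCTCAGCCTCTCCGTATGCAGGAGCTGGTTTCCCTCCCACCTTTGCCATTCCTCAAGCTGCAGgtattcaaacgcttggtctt

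The 54 nt exons of MBNL1 and MBNL2 shared 45 of 54 bases (83.3% identical). The 36 nt exons of the same genes shared 86.1% and their 95 nt exons 85.3%. The 54, 36 and 78 nt exons are multiples of 3 in length, so each can be skipped without a shift of the reading frame.

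AKAP8 itself was lower in the libraries labelled as knockdown. Its scaled reads were 244, 310 and 245 in EPI control and 121, 98.8 and 125 in EPI AKAP8 KD. In MES they were 382, 196 and 248 in control and 108 and 122 in AKAP8 KD. Knockdown libraries thus held 37.1 to 46.9% of the control mean in EPI and 39.3 to 44.3% in MES, with no overlap in either state. The log2 difference was -1.20 (SE 0.25, adjusted p = 0.066, limma) in EPI and -1.20 (SE 0.28, adjusted p = 0.032, limma) in MES. So the check of the knockdown passed the adjusted threshold in MES and missed it in EPI.

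Scaled reads stand for gene levels throughout. They are the inclusion and skipping reads of a gene's SE events, summed and divided by a library size factor, and a member was called changed at an absolute log2 difference over 1 and an adjusted p under 0.05 in limma over 9014 genes. All 9 members passed the filter on low values. These sums depend on how many SE events a gene has (from 2 for ESRP2 to 12 for MBNL1), so they are compared between libraries and not between genes. In these bulk samples, fewer cells of a type and less RNA per cell cannot be told apart. The study's methods call the libraries biological replicates, and the tables list them by group without numbers, so they are named here by their place in that list.

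Between EPI and MES controls, ESRP1 fell to 6.41% and ESRP2 to 8.95% of the EPI mean, and QKI rose to 208% of it. These were the members called. ESRP1 had 3207, 3158 and 3658 scaled reads in EPI control and 118, 243 and 282.5 in MES control. ESRP2 had 852, 880 and 658 in EPI control and 67.6, 70.4 and 75.9 in MES control. For both genes the highest MES library lay far below the lowest EPI library. The log2 difference, MES minus EPI, was -4.05 for ESRP1 (SE 0.26, adjusted p = 3.4e-07, limma). For ESRP2 it was -3.45 (SE 0.20, adjusted p = 1.8e-07, limma). ESRP1 spread more among the MES controls than ESRP2 did, with its lowest value in MES control library 1.

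QKI had 1187, 927 and 1116 scaled reads in EPI control and 2367, 2158 and 2183 in MES control, with no overlap. It rose by 1.06 on the log2 scale (SE 0.18, adjusted p = 0.0008, limma), just past the fold cutoff. Without EPI control library 2 the log2 difference was 0.95, under the cutoff, with an adjusted p of 0.0052 in limma.

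Both MBNL genes differed between the states in opposite directions, but neither reached the fold cutoff. MBNL1 had 2373, 1672 and 2717 scaled reads in EPI control and 3903, 3585 and 4104 in MES control, a log2 difference of 0.80 (SE 0.24, adjusted p = 0.027, limma). MBNL2 had 623, 344 and 617 in EPI control and 198, 234 and 393 in MES control, a log2 difference of -0.95 (SE 0.31, adjusted p = 0.040, limma). The MBNL1 groups were apart, whereas MES control library 3 lay above EPI control library 2 for MBNL2. MBNL2 reached the fold cutoff without either of these libraries, at -1.24 in both cases. Leaving out each library in turn gave -1.24 to -0.75.

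RBFOX2 was higher in all 3 MES controls, yet it did not pass the test. Its scaled reads were 1380, 1459 and 1551 in EPI control and 1910, 2033 and 1693 in MES control, a log2 difference of 0.36 (SE 0.13, adjusted p = 0.067, limma). PTBP3 was also apart, with 3784, 3412 and 3690 in EPI and 3226, 3002 and 2799 in MES control (log2 difference -0.27, adjusted p = 0.29, limma). PTBP1 (-0.14, adjusted p = 0.54, limma) and CELF1 (0.16, adjusted p = 0.51, limma) overlapped between the states.

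In all, 3 of 9 members were called between EPI and MES, 1 higher and 2 lower, where 12.5% of all genes tested were called, 5.38% higher and 7.16% lower. At an adjusted p under 0.05 without the fold cutoff, 5 of 9 members and 23.9% of all genes passed. Groups did not overlap for 6 of 9 members and for 45.7% of all genes. The median log2 difference of the members was -0.14, and that of all genes 0.01.

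**Figure D1:**
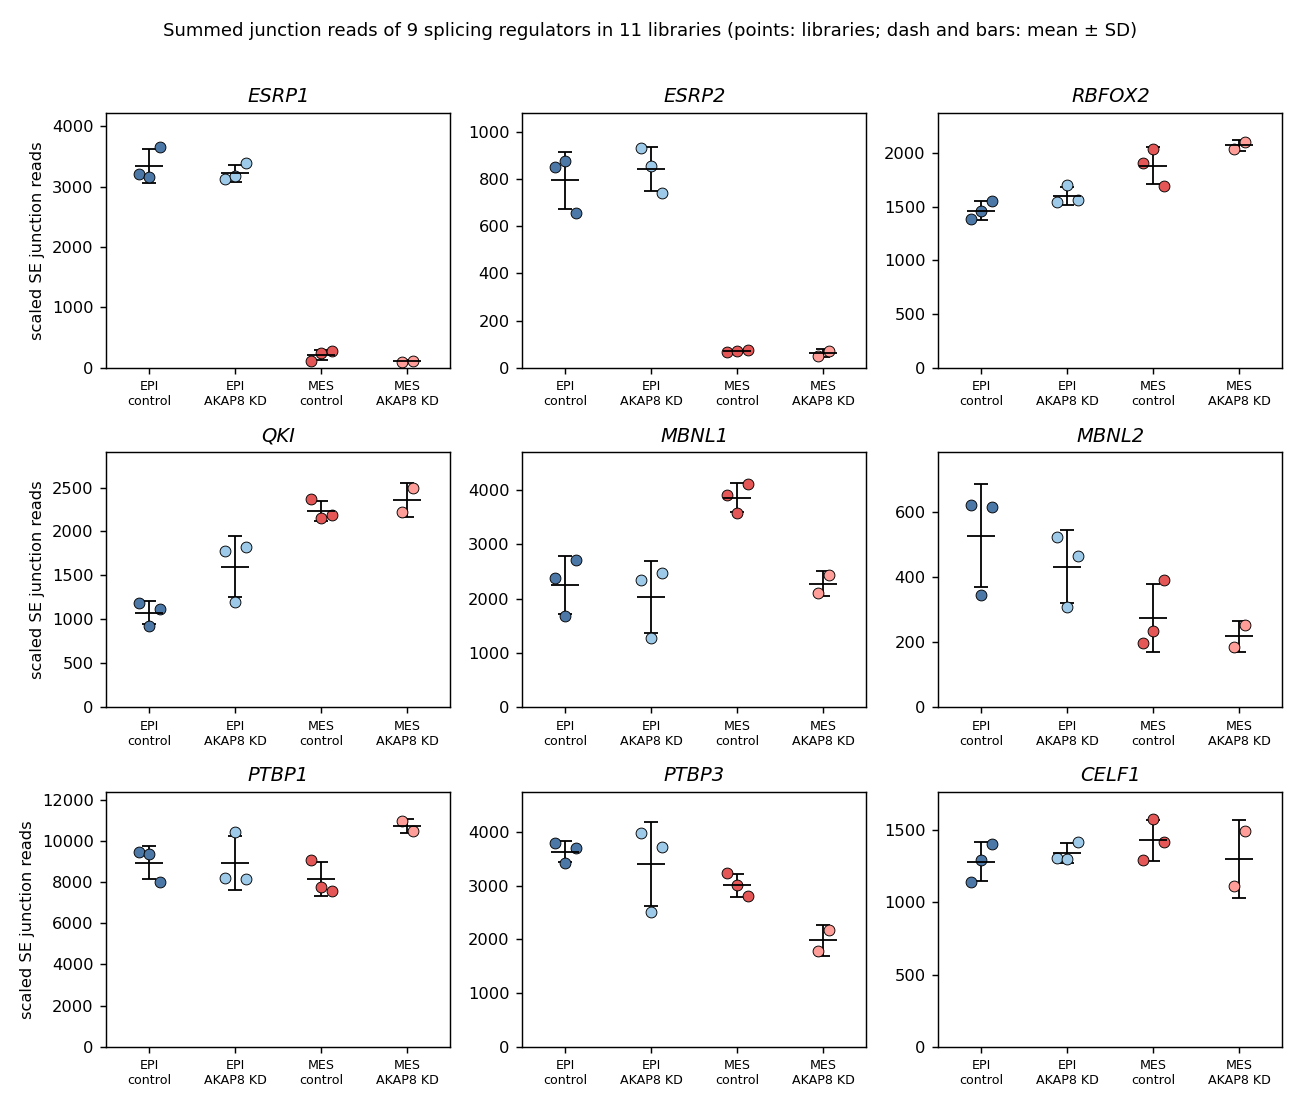
Scaled SE junction reads (vertical axis, from 0) of the 9 regulators in the 11 RNA-seq libraries, by group on the horizontal axis; points are libraries, dashes group means and bars 1 SD. ESRP1 and ESRP2 are near the base in all MES libraries, QKI is higher in MES, and MBNL1 in MES AKAP8 KD (2110 and 2440) lies below all 3 MES controls.

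AKAP8 knockdown in EPI cells called 0 of 9 members in limma, with or without voom weights, where 0.189% of all genes were called. QKI had the smallest adjusted p of the members. Its scaled reads were 1782, 1197 and 1824 after knockdown against 1187, 927 and 1116 in control. The lowest knockdown library lay only just above the highest control, and the log2 difference was 0.55 (SE 0.18, adjusted p = 0.27, limma). Groups did not overlap for QKI alone among the members, and for 14.1% of all genes. Without EPI AKAP8 KD library 2, the QKI difference was 0.75 with an adjusted p of 0.029 in limma, still under the fold cutoff. Leaving out each library in turn gave 0.45 to 0.75.

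The other members stayed within their own spread in EPI. ESRP1 had 3119, 3169 and 3382 scaled reads after knockdown, 96.5% of the control mean, and ESRP2 932, 856 and 743, 106% of it. The log2 differences of the 8 members other than QKI ran from -0.27 (MBNL2) to 0.13 (RBFOX2), with adjusted p-values in limma of 0.86 and above. For MBNL1, MBNL2 and PTBP3, library 2 was the lowest of its group in both EPI control and EPI AKAP8 KD: MBNL1 stood at 1672 and 1274, MBNL2 at 344 and 307, and PTBP3 at 3412 and 2506. A fit with place in the list as a block, over all libraries of both states, called no member after knockdown in EPI either.

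Knockdown in MES cells also called 0 of 9 members in limma, with or without voom weights, where 2.27% of all genes were called. The smallest adjusted p among the members was 0.081 in limma, for ESRP1. ESRP1 was already low in MES control, at 118, 243 and 282.5 scaled reads, and stood at 93 and 115 after knockdown. That is 48.5% of the control mean, a log2 difference of -0.95 (SE 0.29, adjusted p = 0.081, limma). Without MES control library 1, the lowest of the controls, the difference was -1.33 with an adjusted p of 0.0088 in limma, which passed the call. Leaving out each library in turn gave -1.33 to -0.71. ESRP2 (50.8 and 72.9 against 67.6, 70.4 and 75.9) overlapped with its controls.

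MBNL1, PTBP3 and PTBP1 were apart from their controls in MES, as ESRP1 was. MBNL1 stood at 2110 and 2440 scaled reads after knockdown in MES, under all 3 controls, with a log2 difference of -0.77 (SE 0.27, adjusted p = 0.12, limma). PTBP3 stood at 1777 and 2178 against 3226, 3002 and 2799 (-0.61, SE 0.19, adjusted p = 0.092, limma). PTBP1 was the member that stood higher, at 10981 and 10503 against 9083, 7769 and 7596 (0.40, SE 0.16, adjusted p = 0.17, limma). RBFOX2 was apart as well, at 2036 and 2105 against 1910, 2033 and 1693, by a log2 difference of 0.14. With these, groups did not overlap for 5 of 9 members, beside 45.1% of all genes. The median log2 difference of the members was -0.22, and that of all genes -0.01.

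The effect of knockdown was also compared between the states. The difference of the log2 differences, MES minus EPI, was -0.90 for ESRP1 (SE 0.39), -0.58 for MBNL1 (SE 0.36), -0.48 for QKI (SE 0.26) and 0.41 for PTBP1 (SE 0.22). None of the 9 members passed the limma interaction test, where the smallest adjusted p among them was 0.75. Over all genes, 0.0111% passed after adjustment. The EPI controls enter both the EMT and the EPI knockdown comparison, and MES controls enter both MES comparisons, so these comparisons are not independent of each other.

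**Figure D2:**
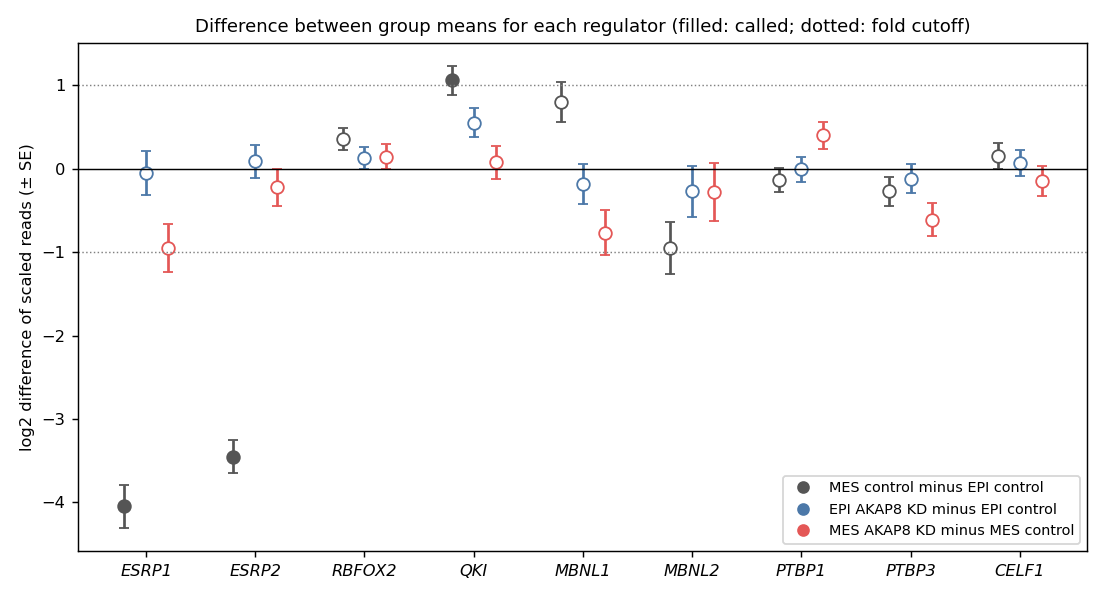
Log2 difference of scaled reads (vertical axis) for each regulator in 3 comparisons; points are differences of group means, bars 1 SE, filled points are called and dotted lines mark the fold cutoff of 1. The called points are ESRP1 (-4.05), ESRP2 (-3.45) and QKI (1.06) between MES and EPI controls, and every knockdown point is open.

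From low to high, the groups had these orders. ESRP1, MBNL2 and PTBP3 went from MES AKAP8 KD to MES control, EPI AKAP8 KD and EPI control. ESRP2 had the same order with both EPI groups exchanged. For RBFOX2 and QKI the order was EPI control, EPI AKAP8 KD, MES control and MES AKAP8 KD. MBNL1 was lowest in EPI AKAP8 KD, followed by EPI control, MES AKAP8 KD and MES control. PTBP1 went from MES control to EPI AKAP8 KD, EPI control and MES AKAP8 KD, and CELF1 from EPI control to MES AKAP8 KD, EPI AKAP8 KD and MES control. Not all neighbours were apart. The EPI groups overlapped for all members but QKI, for which EPI AKAP8 KD lay between EPI control and MES control and overlapped with neither. The MES groups overlapped for ESRP2, QKI, MBNL2 and CELF1. All neighbours in the order overlapped for MBNL2 and CELF1.

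The genes whose levels were most like those of a member over the 11 libraries were found by Pearson's r of log2 values. For ESRP1 these were INADL (r = 0.998), S100A14 (0.994) and ADGRA3 (0.994). For ESRP2 they were ST14 (0.994), PKP3 (0.992) and MYO5B (0.991). RBFOX2 was most like TMEM57 (0.981), CSF1 (0.974) and SLC9A8 (0.973), and QKI was most like CDK17 (0.958), ZNF75A (0.952) and CDK13 (0.947). ESRP1 and ESRP2 had an r of 0.984 with each other. The libraries fall into EPI and MES, so a high r describes mainly a shared step between the states.

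Splicing within the members was read as percent spliced in (PSI), the share of length-corrected junction reads that include an exon. An event was called at an adjusted p under 0.05 in a limma-moderated quasi-binomial test and a change of at least 10 PSI points, and it needed at least 20 reads per library on average. The MES knockdown tables list only MES control libraries 1 and 2, so PSI differences after knockdown in MES set these 2 against the 2 knockdown libraries, whereas the test between states used all 3 controls. Between EPI and MES controls, 9 of 123 member events were called, 5 with more and 4 with less inclusion in MES, beside 1.6% of events of all genes. They lay in MBNL1 (6), MBNL2 (1) and PTBP1 (2). Rows of a gene can share exons and junction reads, so these events are not independent of each other. With limma on the logit of PSI in place of the quasi-binomial test, 8 of the 9 were not called (adjusted p = 0.066 to 0.66). The median absolute change was 1.07 points for members and 0.934 for all events.

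The 54 nt exon of MBNL1, which is known to favour a nuclear location of the protein and to be under the control of MBNL proteins themselves, was skipped in MES. Its PSI was 66.8, 76.1 and 72.8% in EPI control and 24, 32.5 and 33.9% in MES control. The groups were far apart, with a mean of 71.9% ± 4.69 (SD, n = 3) against 30.1% ± 5.36 (SD, n = 3). Inclusion fell by 41.8 points (adjusted p = 9.0e-14, limma-moderated test), while limma on the logit of PSI gave an adjusted p of 0.066, over the threshold. After AKAP8 knockdown PSI was 62.3, 72.4 and 61.7% in EPI and 26.6 and 34.3% in MES, and both groups overlapped with their controls. The differences were -6.39 points in EPI (adjusted p = 0.71, limma-moderated test) and 2.20 points in MES (adjusted p = 0.85, limma-moderated test).

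The homologous exon of MBNL2 moved the same way at fewer reads. PSI of the MBNL2 54 nt exon was 37.8, 29.9 and 31.4% in EPI control and 6.99, 15 and 9.39% in MES control, with 64.7 reads per library on average. It fell by 22.6 points (adjusted p = 0.023, limma-moderated test), and the groups did not overlap. Leaving out EPI control library 1 or any of the MES controls took the adjusted p over the threshold (0.062 to 0.16), at differences of -24.8 to -20.2 points. After knockdown the values were 24.3, 34.5 and 34% in EPI and 3.31 and 10% in MES, overlapping with the controls. Inclusion thus fell in both genes, while their levels differed between the states in opposite directions.

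The 36 nt exon of MBNL1 went the opposite way. Measured up to the next 95 nt exon, its PSI was 56.9, 42.5 and 47.6% in EPI control and 70.3, 73.2 and 74.2% in MES control. It rose by 23.5 points (adjusted p = 0.0012, limma-moderated test), but the adjusted p was 0.37 with limma on the logit. A second row of the same exon, joined to a further exon, had 40.9, 71.5 and 40.8% in EPI and 71.4, 72.3 and 81.1% in MES control, so that EPI control library 2 overlapped with MES. That row rose by 23.9 points (adjusted p = 0.0070, limma-moderated test), but its adjusted p was 0.23 without EPI control library 1, 0.18 without EPI control library 3 and 0.061 without MES control library 3. Knockdown left the first of these rows at 45.4, 44 and 44.7% in EPI and at 74.0 and 72.2% in MES, and neither comparison passed. The MBNL2 36 nt exon, its close copy, had 0 to 5.58% over the libraries in the row with most reads. In a second row of that exon, joined to a further exon, the group mean was 4.18% in EPI control, 8.31% in EPI AKAP8 KD and 0.857% in MES control, at 25.3 and 27.3 reads per library on average in the EMT and EPI knockdown tables.

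MBNL1 also held the 3 called events listed as mutually exclusive exons, which share junction reads with the rows above and are not independent of them. The 154 nt exon is also the next exon after the 54 nt exon in its row above. These ratios therefore do not show that one of these exons replaced the other. The ratio of the 54 nt exon to the following 154 nt exon fell from 47.5, 45.2 and 39.3% to 14.0, 21.1 and 22.1%, by 24.9 points (adjusted p = 5.9e-08, limma-moderated test). Use of the 154 nt exon against the 95 nt exon, after the 54 nt exon, fell by 20.8 points (adjusted p = 2.0e-08, limma-moderated test). Against a 75 nt exon, and without the 54 nt exon, it rose by 14.4 points (adjusted p = 3.1e-05, limma-moderated test). The share of all tested events of this kind that were called was 2.29%.

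PTBP1 exon inclusion passed the test as well, but not the spread between libraries. The 78 nt exon codes for part of the linker between the second and the third RNA recognition motifs, and its skipping is known to lower the repressive activity of the protein. PSI was 70.5, 71.8 and 89.0% in EPI control and 85.9, 94.5 and 87.1% in MES control. EPI control library 3 lay above 2 of the 3 MES controls, so the groups overlapped. The difference was 12.1 points (adjusted p = 4.4e-06, limma-moderated test). The variance of this exon between libraries of a group was 24.4 times binomial, whereas the test, which borrows from exons of like depth, used 3.90. With a single prior for all exons the adjusted p was 0.62, and the difference was under 10 points without EPI control library 1 (8.77), EPI control library 2 (9.45) or MES control library 2 (9.42). Of all called SE events, 95.5% had groups that did not overlap, and this exon is not among them.

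A shorter 57 nt form of the same exon, which starts at an inner splice site, shares the skipping reads and showed the same pattern. Its PSI was 39.5, 36.6 and 67.8% in EPI control and 55.9, 72.3 and 60.0% in MES control (difference 14.7 points, adjusted p = 0.047, limma-moderated test). This call was lost without each of 5 libraries in turn, all but EPI control library 3. After knockdown the 78 nt exon stood at 76.6, 90.5 and 84.1% in EPI, and at 91.9 and 71.0% in MES. Both pairs of groups overlapped. In EPI the difference was 6.64 points (adjusted p = 0.71, limma-moderated test), and without EPI AKAP8 KD library 1 it was 10.2 points with an adjusted p of 0.019. In MES it was -8.77 points (adjusted p = 0.76, limma-moderated test).

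**Figure D3:**
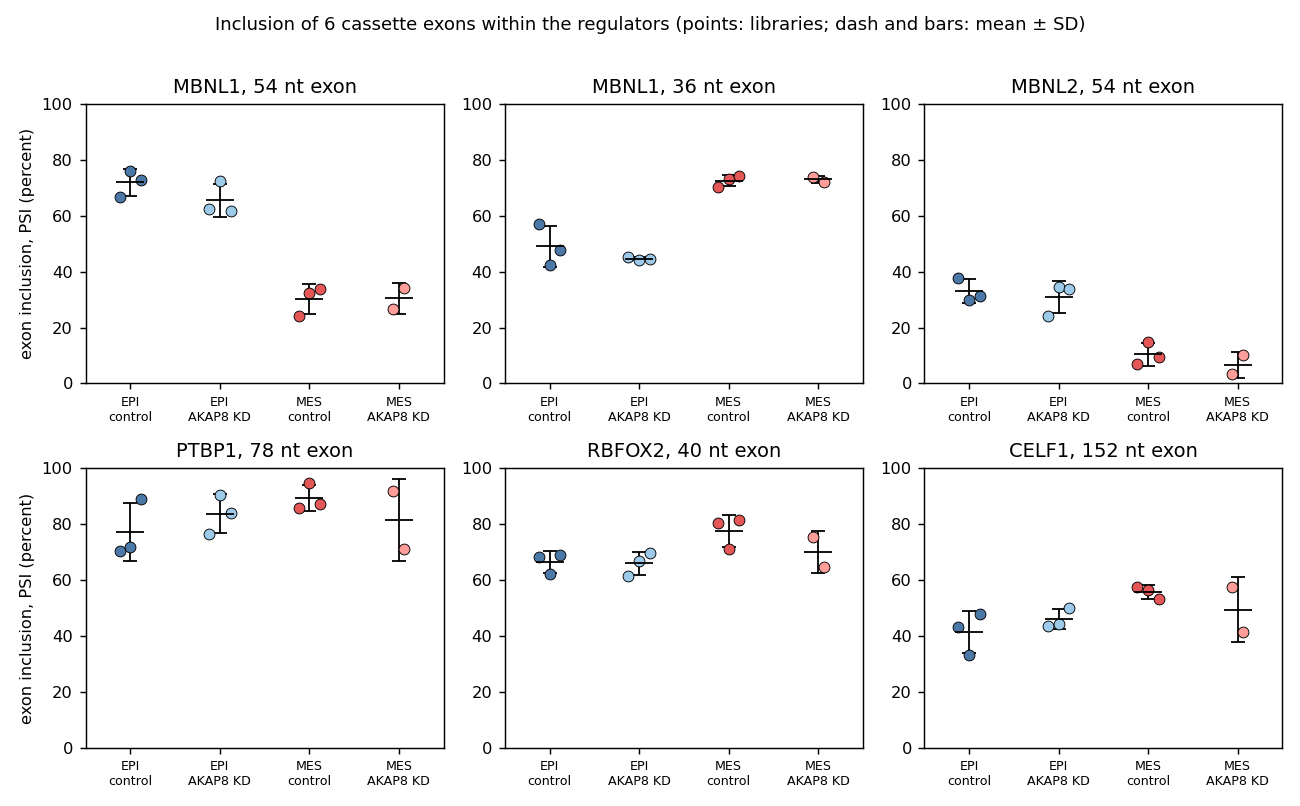
PSI in percent (vertical axis, 0 to 100) of 6 exons in the 11 libraries, by group on the horizontal axis; points are libraries, dashes means and bars 1 SD. The MBNL1 54 nt exon drops from 66.8 to 76.1% in EPI control to 24 to 33.9% in MES control, the MBNL1 36 nt exon goes the opposite way, and PTBP1 libraries spread widely within groups.

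No event of the remaining members was called. Among these, the largest difference was -18.1 points for a retained intron of QKI (adjusted p = 0.47, limma-moderated test), and of exons it was 15.4 points for a 72 nt exon of CELF1 (adjusted p = 0.39, limma-moderated test). The 40 nt exon of RBFOX2 (chr22:36152152-36152191, minus strand), whose length is not a multiple of 3, had 68.3, 62.0 and 69.0% in EPI control and 80.5, 71.1 and 81.3% in MES control. The groups were apart by 11.2 points, yet the adjusted p was 0.13 in the limma-moderated test. Without MES control library 2 it was 14.5 points with an adjusted p of 0.044, which is past the call. CELF1 was similar, where a 152 nt exon had 43.1, 33.0 and 47.9% in EPI and 57.6, 56.4 and 53.1% in MES control (14.4 points, adjusted p = 0.32, limma-moderated test).

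ESRP exons had few reads in MES, where the genes were low. The ESRP1 110 nt exon had 76.4, 67.5 and 77.3% in EPI control, where the EPI libraries held 718 reads on average, and 100, 89.3 and 61.1% in MES control, where the libraries of the MES knockdown table held 31.5. A second row of this exon, joined to another upstream exon, had 39.1, 81.4 and 64.5% in MES control and 100% in both MES AKAP8 KD libraries. Against MES controls 1 and 2 it differed by 39.7 points after knockdown, at 21.75 reads per library, and did not pass (unadjusted p = 0.027, adjusted p = 0.76, limma-moderated test), whereas the first row differed by -8.72 points. The QKI exon with most reads of its rarer form (143 nt) was included at 96.7 to 100% in all libraries, and that of PTBP3 (170 nt) at 74.2 to 82.2%. The ESRP2 exon chosen in the same way (133 nt) had 97.7 to 100% in EPI control and 100% in all MES controls. After knockdown it had 93.1, 100 and 96.9% in EPI (adjusted p = 0.71, limma-moderated test). In MES it had 77.1 and 100% after knockdown, at 27.25 reads per library on average (adjusted p = 0.76, limma-moderated test).

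After AKAP8 knockdown no member event was called in either state by the limma-moderated test or by limma on the logit of PSI. In EPI 0 of 125 were called, where 0.0492% of all events were called. In MES 0 of 91 were called, beside 0.054% of all events. Median absolute changes were 0.76 points for members and 0.777 for all events in EPI, and 1.45 and 1.01 points in MES. Of 47 member SE events tested for a difference of the knockdown effect between states, 0 passed after adjustment, where 0.00993% of all events passed. The smallest adjusted p among the 47 was 0.66 in this quasi-binomial interaction test.

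Genes with exons known to answer to these regulators held called events. All SE events of these genes were counted, and not only the known exons. The list was chosen with earlier results of these data known, and it holds CD44 and CLSTN1, whose splicing the study itself reported. Its shares are therefore a description and not a test of enrichment. In a list of 23 genes with textbook cassette exons under ESRP, RBFOX2, QKI, MBNL or PTBP control, 57 of 328 SE events (17.4%) were called between EPI and MES, 25 with more and 32 with less inclusion, in 19 genes. The share over all genes was 1.4%, but the median absolute change was 0.743 points for the list and 0.684 for all SE events. The largest called changes were 90.8 points more for a 96 nt exon of ARHGEF11, 83.1 for a 36 nt exon of the junction scaffold MAGI1 and 77.8 for a 93 nt exon of the exocyst subunit EXOC7, while a 204 nt exon of the hyaluronan receptor CD44 fell by 75.2 points. Each exon can stand in several of these rows. After AKAP8 knockdown 5 of 301 list events were called in EPI, in CD44, CLSTN1, SLMAP and TPM1, and 2 of 261 in MES, beside 0.0588% and 0.0479% of all SE events tested. Median absolute changes of the list were below those of all SE events in both, at 0.386 against 0.58 points in EPI and 0.638 against 0.792 in MES. In EPI the SLMAP 90 nt exon was included 26.5 points more and the CLSTN1 57 nt exon 24.9 points more. Inclusion decreased by 19.0 points for the CD44 114 nt exon and decreased by 12.6 points for the TPM1 76 nt exon. In MES it decreased by 35.4 points for the CD44 132 nt exon, in a row with 51 reads per library on average. Its PSI was 36.7 and 42.3% in MES control libraries 1 and 2 and 6.49 and 1.69% after knockdown. MES control library 3, which is not in that comparison, had 15%.

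Levels of other splicing regulators were read in the same way. Of 30 listed RNA-binding proteins and paralogs, 22 were tested, and between EPI and MES 1 was called higher (KHDRBS3, a STAR-family relative of QKI, log2 difference 4.02) and 1 lower (RBM47, an RNA-binding protein of epithelia, -4.27), so 2 of 22, where 12.5% of all genes were called. HNRNPM, an hnRNP protein known to promote mesenchymal splicing, stood higher by 0.70 (adjusted p = 0.0079, limma), under the fold cutoff. After knockdown in EPI 0 of the 22 were called, and in MES 1, AKAP8 itself. The markers of cell state gave the labels' order: all 3 epithelial markers with a value (CDH1, OCLN and JUP, of 10 listed) fell in MES, and all 8 mesenchymal markers with a value rose. The summed epithelial markers ranged from 3294 to 4735 scaled reads in EPI control and from 362 to 582 in MES control. Of 7 markers of other cells, only CD68 had a value, and it fell by 1.02 on the log2 scale; the others have no SE event in all 3 comparisons.

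AKAP8 eCLIP peaks lay on few of the members. With peaks kept at a log2 IP over input of at least 2 and a -log10 adjusted p of at least 3, 3 of 9 members had a peak in EPI (PTBP1 34, RBFOX2 2, CELF1 1) and 1 of 9 in MES (PTBP1 28). Of 8386 genes with a tested level that matched the annotation by symbol, 20.7% had a peak in EPI and 12.6% in MES. ESRP1, QKI, MBNL1, MBNL2 and PTBP3 had none, and a peak of ESRP2 in EPI stayed below the -log10 p cutoff. ESRP1 and ESRP2 were low in MES, as given above. In EPI, where their mean scaled reads were 3341 and 796, neither had a peak past the cutoffs. The part of gene level in the absence of peaks was not tested.

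PTBP1 was the member with many peaks. Its 34 EPI peaks merged into 14 regions and its 28 MES peaks into 15 regions, of which 8 and 10 overlapped with the other state. All lay in introns, 18 of 34 and 15 of 28 within 500 nt of an exon. As many peaks or more were found on 99 of the 8386 genes in EPI and 149 in MES. The log2 IP over input ranged from 2.77 to 4.96 in EPI (median 4.05, against 3.78 for all peaks) and from 2.16 to 4.89 in MES (median 3.27, against 3.49). The lists used here give 1 value per peak for both replicates together, so the states were not compared over replicates.

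These peak sequences are shown because AKAP8 was enriched most at the first of them, and the second lies just upstream of a 76 nt exon and was found in both states. The third lies in the intron after the 78 nt exon, 105 nt before the next exon, and was found in EPI only. They are on the plus strand of GRCh37, at chr19:799144-799198, chr19:803435-803540 and chr19:806202-806302. Runs of 3 or more G are in capitals.
PTBP1 peak 1: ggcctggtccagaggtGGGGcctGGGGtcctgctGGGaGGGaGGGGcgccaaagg
PTBP1 peak 2: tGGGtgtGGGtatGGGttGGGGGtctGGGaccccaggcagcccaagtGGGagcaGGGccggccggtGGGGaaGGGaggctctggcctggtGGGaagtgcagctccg
PTBP1 peak 3: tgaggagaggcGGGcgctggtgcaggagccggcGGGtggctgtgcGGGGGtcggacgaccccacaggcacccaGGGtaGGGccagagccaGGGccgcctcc

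A run of GGG was present in 31 of 34 EPI and 26 of 28 MES peaks on PTBP1, and in 97.3 and 95.8% of all peaks. The log2 IP over input was 4.96 at the first of the printed peaks, 4.40 at the second and 2.77 at the third. In MES, a region at chr19:805880-805934 in the intron after the 78 nt exon reached 4.11 and had no counterpart in EPI. These 2 regions in that intron do not overlap each other, so AKAP8 was found at different places of the intron in the 2 lists.

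**Figure D4:**
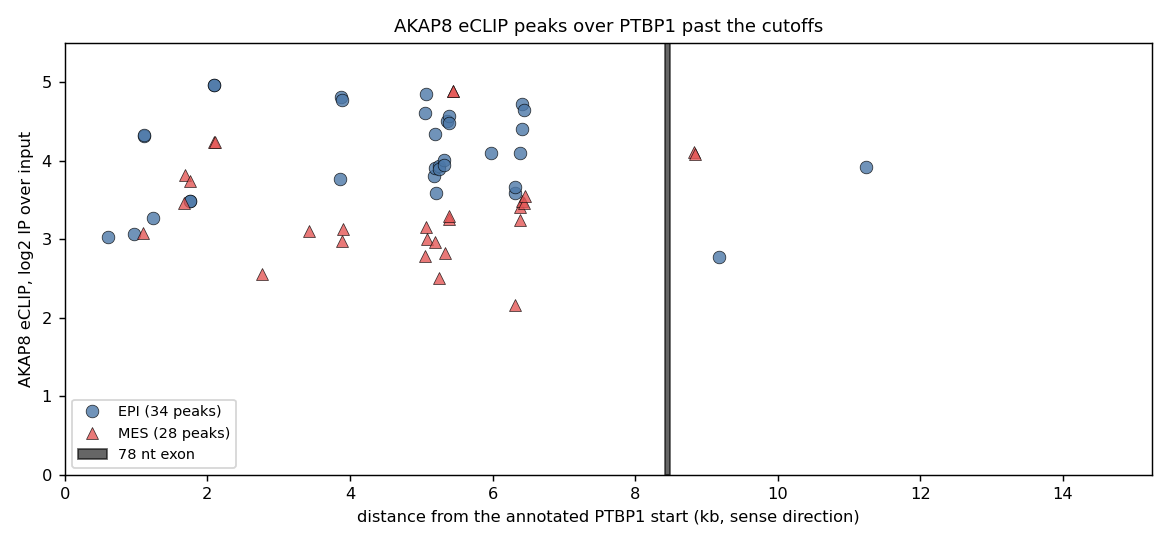
AKAP8 eCLIP peaks on PTBP1 past the cutoffs, by distance of the peak centre from the annotated gene start in kb (horizontal axis) and log2 IP over input (vertical axis, from 0); circles are EPI, triangles MES, and the dark band is the 78 nt exon. Most peaks lie before the exon, EPI peaks reach 4.96 and MES peaks 4.89, and few peaks follow the exon.

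The intron sequence around the called exons was searched for motifs of the regulators, in 250 nt on either side, on the strand of the gene. The RBFOX motif TGCATG stood once upstream of the MBNL1 54 nt exon, once on either side of the MBNL2 54 nt exon, once upstream of the MBNL1 36 nt exon and once downstream of the PTBP1 78 nt exon. Over all 39005 exons of tested SE events, 6.93% held it upstream and 7.27% downstream. Among exons not called as SE events, TGCATG also stood upstream of the MBNL1 204, 95, 64 and 75 nt exons. The same held for the MBNL2 36 and 95 nt exons. It was absent upstream of the MBNL1 963, 120 and 154 nt and MBNL2 264 nt exons. The MBNL-type motif TGCT was found 6 times upstream of the MBNL1 54 nt exon and 4 times upstream of the MBNL2 54 nt exon, and in neither case downstream. Of all exons, 74.4% held at least 1 upstream, with a median of 1. TGCT was more frequent upstream of the MBNL1 120 nt (10), MBNL1 154 nt (9) and MBNL2 95 nt (8) exons. Other exons of these genes held 3 or fewer upstream. A QKI-type motif, ACTAAC or ACTAAT, stood once upstream of the MBNL2 54 nt exon, where 8.3% of all exons held it, and once downstream of the MBNL1 36 nt exon, where 7.51% did. GGG was found 9 times on either side of the PTBP1 78 nt exon, against a median of 3. These are matches of letters and not measured binding sites.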

How the data were processed

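RNA-seq reads were aligned by the authors to GRCh37 with STAR, and rMATS counted inclusion and skipping junction reads for 5 event types in 3 comparisons. The 15 deposited tables hold these counts as lists per group, and the lists were taken apart library by library. Controls were matched between tables by their place, where their SE counts were 100% identical. The 30 deposited columns of per-library PSI were not used, since PSI was recomputed from reads and the effective lengths of the authors. Their columns of p-values, FDR and PSI differences between groups were not used either. A table of gene counts tested by the authors (featureCounts 1.5.0, DESeq2) held no readable gene names and was not used, so gene levels rest on SE junction reads: 33107 events present in all 3 comparisons, summed for 9209 genes. They cover only genes with an SE event, count a read again for each event it supports and move with splicing.

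Sums were scaled to size factors from the median of ratios, filtered at 10 in at least 2 libraries (9014 genes) and tested as log2(value + 1) with limma 3.58.1 in R 4.3.3, all 11 libraries in 1 fit with group means, p-values adjusted by the Benjamini-Hochberg method. Fold changes of low genes are understated on this scale. Events were tested with a quasi-binomial likelihood-ratio F test, 2-sided, whose dispersion was moderated with squeezeVar of limma along a robust trend on reads of the rarer form (under 10 such reads took the trend; never below 1), adjusted within event type and comparison. Count models were not run on these sums, in which a read can stand more than once. Scripts were tested on simulated data.

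The eCLIP peak lists, 1 per state, were made by the authors from 2 IP and 2 input libraries. Their columns are the deposited -log10 adjusted p and log2 of IP over input, used as given. Exons and introns come from Gencode v44 in its GRCh37 lift, a later release than that of the authors. Sequences were read from GRCh37.

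The members and lists were chosen with earlier results of these data known. All 9 members are named, with each event called and, per member, the SE event with most reads of its rarer form. Other exons named, such as the MBNL2 36 nt exon, were chosen after their values were seen. In EPI, libraries at the same place of the control and knockdown lists deviated together (r = 0.28, 0.58 and 0.49 over genes). Fits with place as a block (the replicate block) were therefore run, over all 11 libraries for levels and within each comparison for events. The values of 1 other exon called in the list of known target exons are not reported here.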

Additional observations from a re-analysis of the deposited data

How the results depend on the processing

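The calls rest on few libraries, on sums of junction reads instead of gene counts, and on a dispersion borrowed between exons. Of single genes and exons under the alternatives, 1037 values kept their side of the threshold and their direction, 33 lost the call, 6 gained it and 3 reversed, and 41 more changed sign at a size under their standard error or under 5 points. Between EPI and MES, 3 members were called in level, and 5 without the fold cutoff, which added MBNL1 and MBNL2; leaving out each library gave 3 to 4. QKI was under the fold cutoff when libraries were scaled by total reads (0.95). For member events, the count of 9 became 2 with limma on the logit of PSI, both in MBNL1 and 1 of them among the 9, 4 with a replicate block, 11 without the cutoff on PSI and 5 to 8 when leaving out each library. The cause was not tested. With the replicate block, the levels called remained at a count of 3, and in both knockdown comparisons 0 levels and 0 events were called. The places of EPI and MES controls are not paired by the labels (r = 0.08, 0.18 and 0.26), nor are those of MES control and knockdown (0.17 and 0.02). Leaving out libraries gave 0 to 1 members called in level after knockdown in MES (ESRP1) and 0 to 1 events after knockdown in EPI (PTBP1 78 nt exon). The MBNL1 36 nt exon, in the row joined to the further exon, differed by -5.56 points after knockdown in EPI, and by -10.7 to 4.67 when leaving out each library (4.67 without EPI control library 2, 0.00909 without EPI AKAP8 KD library 2). The ESRP1 110 nt exon, in its row with most reads, differed by -8.72 points after knockdown in MES, and by 2.46 with all 3 MES controls. Without a trend in the dispersion the RBFOX2 40 nt exon was called (adjusted p = 0.017, limma-moderated test) and the PTBP1 78 nt exon was not. With the replicate block the adjusted p of the MBNL1 36 nt exon was 0.086 and 0.22 in its rows. Counts of peaks and of members with peaks stayed within 1.5 times of the values given at a log2 of at least 3 and at an overlap of 50%. Leaving out a library of the MES knockdown events was not run, since a group would be left with 1 library.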
